A study of Mus musculus with 6 samples.

Results

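The muscle ankyrin repeat genes and a set of stretch response genes of striated muscle were followed in ventricular apex tissue of transgenic mouse hearts. The set has 9 genes: Ankrd1, Ankrd2 and Ankrd23, Csrp3, Rcan1, Xirp1, Xirp2, Fhl1 and Fhl2. A probe set was taken where the platform annotation gave it exactly 1 gene symbol and that symbol was on this list, which left 11 of 45037 probe sets, standing for 8 of the 9 genes. No probe set carried the symbol Xirp2, so Xirp2 was not analysed here. The genes were chosen by name and function, with the differences of this same comparison already known, so every count, interval and adjusted p of theirs is a description and supports nothing.

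The series holds 6 arrays of mice made transgenic for a human progesterone receptor of the mitochondrion, named PR-M, 3 of them labelled as expressing PR-M and the other 3 as not expressing it. Both groups had received 2.5 mg progesterone in oil under the skin for 19 to 21 days, so they share the hormone. They differ by the PR-M label and also by the prefix of the sample titles, as no prefix holds both groups. The label and the prefix therefore cannot be told apart. Total RNA was read on the Affymetrix Mouse Genome 430 2.0 Array, where a gene can have several probe sets. Strain, age, sex, promoter of the transgene and the way expression was established are not given in the labels, nor whether each array is a separate animal, so the errors below measure the spread between these samples, which may be technical.

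The muscle ankyrin repeat proteins bind titin, the giant spring protein of the sarcomere, and also travel to the nucleus, where they act on gene activity. Ankrd1 is the cardiac member and is a textbook marker of load on the heart muscle, Ankrd2 is best known from slow skeletal muscle, and Ankrd23 is found in heart and skeletal muscle. Csrp3 encodes the muscle LIM protein of the Z-disc, the Fhl genes encode proteins built of LIM domains that sit on titin, and the Xirp genes encode actin-binding proteins of the intercalated disc. Rcan1 encodes an inhibitor of the phosphatase calcineurin and is itself switched on by calcineurin through the factor NFAT from a start inside the gene.

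The stretches just upstream of the gene starts are shown for Ankrd1, the load marker, and for Ankrd23 and Rcan1, the genes that hold the probe sets whose groups did not overlap. They are 250 bases each from RefSeq, build GRCm38.p6, written 5′ to 3′ along the gene and ending at the base before the start. Capitals mark matches on either strand to CATTCC (the M-CAT element bound by TEAD factors), AGATAA (bound by GATA factors) and GGAAA (the core bound by NFAT), and no matches overlap.
Ankrd1, chr19:36119845-36120094, minus strand: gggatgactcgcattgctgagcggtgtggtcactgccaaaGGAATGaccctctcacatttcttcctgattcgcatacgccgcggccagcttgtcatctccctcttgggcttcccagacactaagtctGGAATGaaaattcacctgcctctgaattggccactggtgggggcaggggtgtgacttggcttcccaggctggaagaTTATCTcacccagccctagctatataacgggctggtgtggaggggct
Ankrd23 start A, chr1:36536557-36536806, minus strand: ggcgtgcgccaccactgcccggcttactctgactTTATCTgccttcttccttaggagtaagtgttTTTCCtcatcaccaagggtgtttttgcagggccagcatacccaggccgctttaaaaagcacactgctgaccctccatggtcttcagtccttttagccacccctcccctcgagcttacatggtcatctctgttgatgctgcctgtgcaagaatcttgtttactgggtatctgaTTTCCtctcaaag
Ankrd23 start B, chr1:36535740-36535989, minus strand: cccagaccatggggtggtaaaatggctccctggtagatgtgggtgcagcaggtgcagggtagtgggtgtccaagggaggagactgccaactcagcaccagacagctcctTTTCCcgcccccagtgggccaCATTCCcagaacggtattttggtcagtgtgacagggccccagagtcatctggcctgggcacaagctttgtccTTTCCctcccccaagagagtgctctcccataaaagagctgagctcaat
Rcan1 start A, chr16:92466170-92466419, minus strand: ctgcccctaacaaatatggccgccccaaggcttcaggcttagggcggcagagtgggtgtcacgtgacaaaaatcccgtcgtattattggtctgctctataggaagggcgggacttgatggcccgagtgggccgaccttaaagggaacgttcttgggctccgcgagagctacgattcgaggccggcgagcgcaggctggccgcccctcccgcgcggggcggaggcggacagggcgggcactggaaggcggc
Rcan1 start B, chr16:92400079-92400328, minus strand: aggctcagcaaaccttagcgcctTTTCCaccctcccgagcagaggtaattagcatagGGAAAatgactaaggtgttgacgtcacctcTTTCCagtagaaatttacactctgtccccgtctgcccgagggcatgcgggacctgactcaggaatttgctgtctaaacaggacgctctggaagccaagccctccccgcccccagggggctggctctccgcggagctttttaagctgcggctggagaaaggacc

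The Ankrd1 stretch holds 2 CATTCC matches, 210 and 123 bases before the start, and 1 AGATAA match at 47 bases. Of 32851 RefSeq stretches of the same length, 12.6% hold CATTCC and 1.02% hold it at least 2 times, and 9.99% hold AGATAA. Start B of Rcan1, the one inside the gene, holds 3 GGAAA matches at 227, 193 and 163 bases, while start A holds none. The letters GGAAA occur in 55.6% of all stretches and at least 3 times in 6.39%. Each Ankrd23 start holds 2 GGAAA matches, where 21.4% of all stretches hold at least 2. Start B of Ankrd23 also holds 1 CATTCC match at 120 bases, while its start A holds 1 AGATAA match at 216 bases. These are matches of letters and not measured binding. The sources used here do not give which start a probe set reads. RefSeq stretches were found for 8 of the 9 genes, all but Xirp1. Over all 13 stretches of these genes, shown or not, 2 hold CATTCC, 3 hold AGATAA and 5 hold GGAAA.

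Values below are the authors' deposited log2 expression values, in which 1 unit is a 2-fold step, and the array medians lay at 5.77 to 5.78. They are given for replicates 1, 2 and 3 in that order, a numbering that pairs no samples across the groups. Brightness differs between probes, so levels are compared between arrays within a probe set; brightness is used otherwise only to choose the probe set that stands for a gene and to call a probe set dim. In bulk tissue a lower value from fewer cells of a type and one from less RNA per cell cannot be told apart. Differences are expressing minus non-expressing, with the standard error of the linear model of limma.

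Ankrd23 was the member with the clearest separation. Its only probe set, 1428183_at, read 10.68, 10.74 and 10.87 in expressing arrays and 11.20, 11.26 and 11.20 in non-expressing arrays. All 3 expressing arrays were lower, with a gap of 0.34 between the nearest arrays of the groups. The mean was 10.76 ± 0.09 against 11.22 ± 0.03 (SD, n = 3 each), a log2 difference of -0.46 (SE 0.08, 95% interval -0.64 to -0.27) or 1.37-fold. In the limma fit over all 45037 probe sets it did not pass, with an adjusted p of 0.122 (Benjamini-Hochberg), nor over 18193 genes, with an adjusted p of 0.141. With an intensity trend and robust prior in limma it would pass over genes at an adjusted p of 0.0414, and over probe sets it stood at 0.05 without passing. The title prefix, which the labels do not explain, holds 1 group only in each case. Entered as a random block in limma it gave an adjusted p over genes of 0.289. Such a block does not separate the prefix from the PR-M label.

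Ankrd1 was bright and varied more within a group than between the groups. Its probe set 1420991_at read 12.50, 12.71 and 12.64 in expressing and 13.04, 12.86 and 12.33 in non-expressing arrays. The other, 1420992_at, read 12.97, 13.25 and 13.09 against 13.38, 13.28 and 12.90. Both put the 6 arrays in the same order, with non-expressing replicate 1 highest and replicate 3 lowest, so the non-expressing arrays spanned the expressing ones on both sides. The differences were -0.13 (SE 0.17, 95% interval -0.51 to 0.25) and -0.08 (SE 0.14, 95% interval -0.39 to 0.23). Without non-expressing replicate 1 they were 0.02 and 0.01, and without non-expressing replicate 3 they were -0.33 and -0.23, so 1 array sets their sign.

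Ankrd2, the third of the family, was close to the array medians and may be near background in this tissue. It read 5.94, 5.85 and 5.91 in expressing and 6.0, 6.28 and 5.93 in non-expressing arrays, which overlap by 0.01. The difference was -0.17 (SE 0.10, 95% interval -0.40 to 0.07). Non-expressing replicate 2 stood highest, and without it the difference was -0.06.

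**Figure D1:**
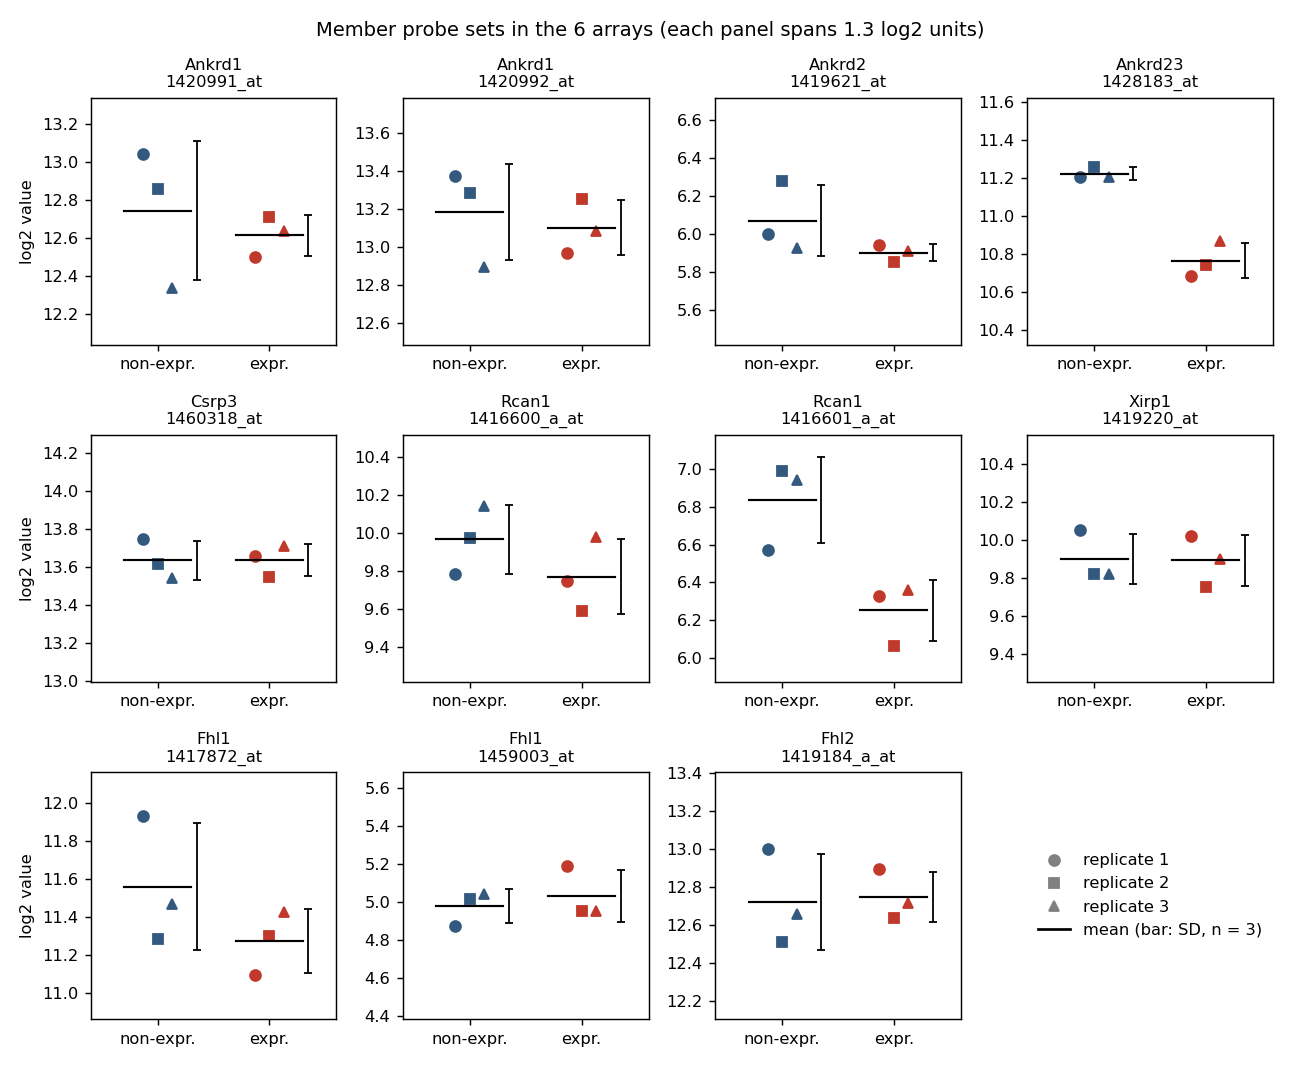
Log2 value of the 11 probe sets in the 3 non-expressing (blue) and 3 expressing (red) arrays, each panel spanning the same number of log2 units, with the mean as a line and the SD as a bar. The groups part without overlap for Ankrd23 and for Rcan1 1416601_a_at, and overlap in the other 9 panels.

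The 2 Rcan1 probe sets had negative differences of unlike size, with 95% intervals that overlapped. Probe set 1416601_a_at read 6.33, 6.07 and 6.36 in the expressing arrays and 6.57, 6.99 and 6.94 in the non-expressing arrays. All 3 expressing arrays were lower, with a gap of 0.21 between the nearest arrays. The means were 6.25 ± 0.16 and 6.83 ± 0.23 (SD, n = 3 each), a log2 difference of -0.58 (SE 0.13, 95% interval -0.88 to -0.28) or 1.49-fold, and it did not pass (limma adjusted p 0.184 over all probe sets).

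The brighter Rcan1 probe set, 1416600_a_at, read 9.75, 9.59 and 9.98 against 9.78, 9.98 and 10.14. The groups overlapped, with a difference of -0.20 (SE 0.13, 95% interval -0.49 to 0.09). Within each array the log2 ratio of 1416601_a_at to 1416600_a_at was lower in all 3 expressing arrays than in any non-expressing array. Its mean differed by -0.38. The ratio reuses a probe set whose groups did not overlap. How often such ratios part the groups over all genes was not computed. The smaller change of the brighter probe set stands for Rcan1 in the comparison over genes; with the mean of both the difference was -0.39 (limma adjusted p 0.298). The same within-array ratio overlapped between the groups for the 2 probe sets of Ankrd1, with means that differed by 0.05, and for those of Fhl1, with means that differed by 0.34.

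**Figure D2:**
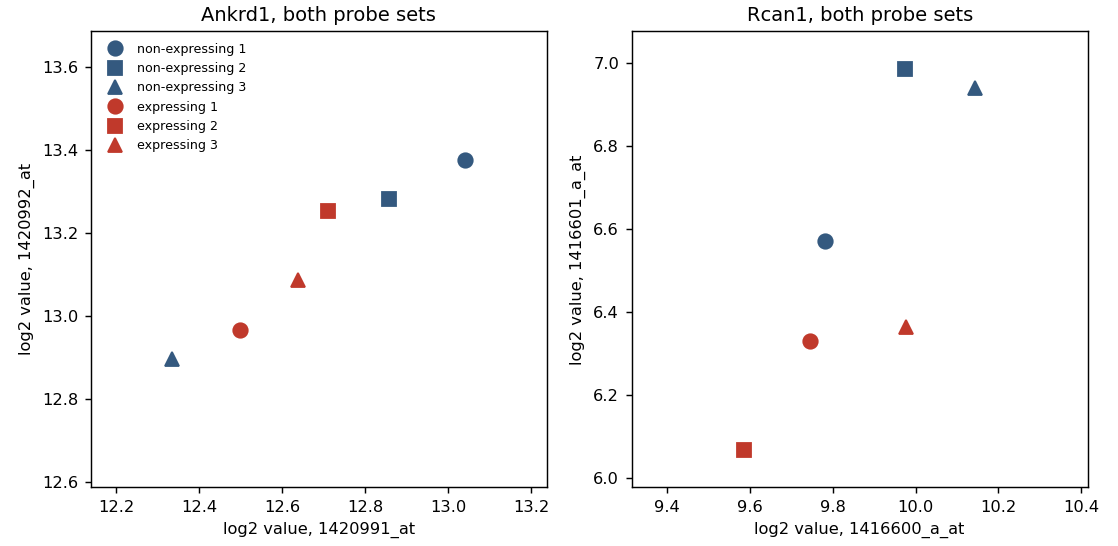
Log2 value of 1 probe set against the other of the same gene, 1 point per array, on axes of equal length, for Ankrd1 (left) and Rcan1 (right). The 6 arrays keep 1 order on both Ankrd1 axes, while the expressing arrays (red) of Rcan1 lie lower on the vertical axis than the non-expressing ones (blue) and overlap them on the horizontal axis.

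The groups overlapped for the Z-disc gene Csrp3 and the intercalated disc gene Xirp1. Csrp3 read 13.66, 13.55 and 13.71 in expressing and 13.75, 13.62 and 13.54 in non-expressing arrays, with a difference of 0.0016 (SE 0.09, 95% interval -0.20 to 0.20). The interval leaves room for a change of up to 1.15-fold either way. Xirp1 read 10.02, 9.76 and 9.90 against 10.05, 9.82 and 9.82, with a difference of -0.0065 (SE 0.10, 95% interval -0.24 to 0.23).

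Of the LIM-only genes, Fhl2 had all its expressing values inside the range of the non-expressing ones. It read 12.89, 12.63 and 12.71 in expressing and 13, 12.51 and 12.66 in non-expressing arrays, a difference of 0.03 (SE 0.13, 95% interval -0.28 to 0.33). Fhl1, which is known to sit on titin and to carry stretch signals, read 11.10, 11.30 and 11.43 against 11.93, 11.28 and 11.47 with its bright probe set 1417872_at. One array, non-expressing replicate 1, stood above the other 5. The difference of -0.29 (SE 0.16, 95% interval -0.66 to 0.09) was -0.10 without that array. The other Fhl1 probe set, 1459003_at, lay under the array medians at 4.88 to 5.19 in all 6 arrays and differed by 0.05.

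Over the 11 probe sets, 8 had negative and 3 positive differences, with a median of -0.13, where all probe sets had a median of -0.02 and 55.6% were negative. None of the 11 passed in limma, where 0.0133% of all probe sets passed, and none of the 8 genes passed, where 0.066% of all genes did. At an unadjusted p under 0.05 there were 2 of the 11 in limma, beside 12.2% of all probe sets. Of the 11, 2 (18.2%) had no overlap between the groups, beside 18.6% over the whole array. Both were lower in the expressing arrays, and 10.3% of all probe sets were lower in that way. The share without overlap in either direction is thus near that of the whole array. The shares of negative differences, of unadjusted p under 0.05 in limma and of lower values without overlap were larger. They rest on only 11 probe sets and are a description. The limma adjusted p of the 9 overlapping probe sets ran from 0.513 to 0.996.

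**Figure D3:**
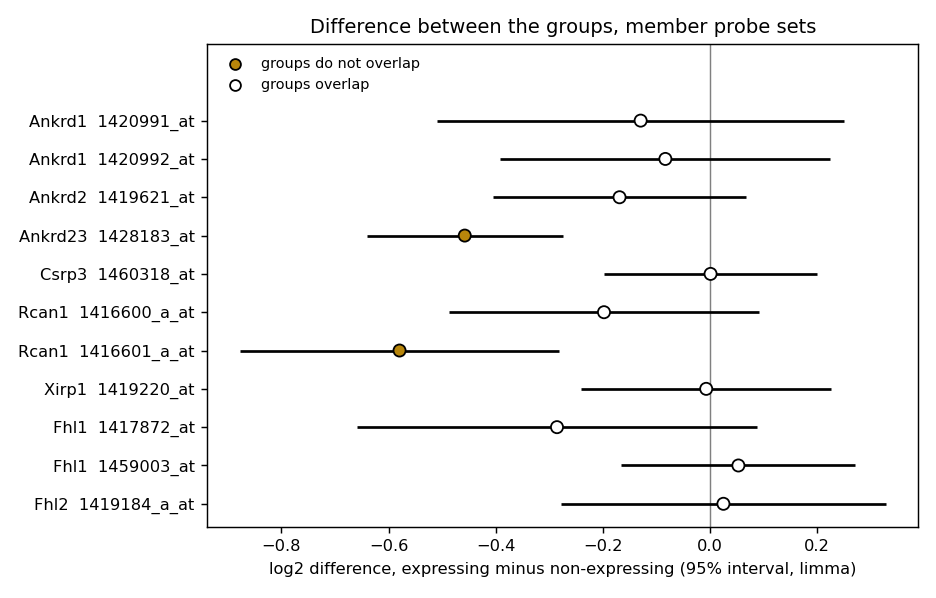
Log2 difference between the groups for each of the 11 probe sets (expressing minus non-expressing; point, filled where the groups did not overlap) with its 95% interval (line). The intervals of Ankrd23 and of Rcan1 1416601_a_at lie below 0 and those of the other 9 span it; none passed the limma test over all probe sets.

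The spread of the members was compared between the groups. The SD was larger among the non-expressing arrays in 7 of 11 probe sets, both of Ankrd1 among them, a share near the 55.3% of all probe sets. Its median over the members was 0.19 in the non-expressing and 0.13 in the expressing arrays. Over all probe sets these medians were 0.11 and 0.10. Non-expressing replicate 1 gave the highest of the 6 values in 6 of the 11, namely both Ankrd1 probe sets, Csrp3, Xirp1, Fhl2 and the bright Fhl1 probe set, beside 24.4% of all probe sets. Ankrd23 went the other way, with an SD of 0.03 in the non-expressing and 0.09 in the expressing arrays.

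Other measures moved with the groups, and their part in the values above was not tested. The marker lists too were chosen with earlier results of these data known, so their counts are a description. Of 8 atrial muscle markers 7 had positive differences, where 56.0% of all genes had negative ones. In limma 3 passed over genes, beside 0.066% of all genes: Sln with a difference of 3.89 (adjusted p 0.0451), Myl4 with 3.60 (0.0451) and Myl7 with 3.45 (0.0348). All 3 calls were lost with a random block for the title prefix (limma adjusted p 0.0882 to 0.0987), with a trend and robust prior (0.0897 to 0.136), without expressing replicate 3 (0.107 to 0.121) and without non-expressing replicate 1, 2 or 3 (0.0549 to 0.191). Without expressing replicate 1 Myl4 was lost (0.0751), and without _x_at and _s_at probe sets Sln and Myl4 (0.0506 each). The summed linear value of the 8 ran from 3098 to 9795 in expressing and from 1138 to 2550 in non-expressing arrays, and Bmp10 alone of the 8 lay below the median probe set. Fibroblast markers had positive differences in 7 of 7, with none passing and sums of 21060 to 23329 against 17786 to 19382. The 2 measured of 4 Schwann cell markers, Mbp and Sox10, had positive differences that did not pass, with sums of 235 to 269 against 184 to 201.

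The 8 genes listed as ventricular muscle markers were bright in both groups, with none below the median probe set. Their sums were 124411 to 129383 in expressing and 123658 to 128046 in non-expressing arrays. Some of the 8, such as Myh6 and Tnnt2, are not limited to the ventricle, so the sum does not measure a ventricular share. Myl2 and Myh6, with expressing means of 14.67 and 14.58, lie near the highest value of 14.8, where a change could be hidden. Skeletal muscle markers had negative differences in 10 of 13, beside 56.0% of all genes. None of the 13 passed, and their sums were 12793 to 13641 and 13312 to 20194. Of these, Myh1, Myh4, Actn3, Tnnt3 and Pvalb lay below the median probe set, and Acta1, shared with the heart, had the lowest p (difference -1.43, limma adjusted p 0.167). The marker sums of smooth muscle, endothelial cells, macrophages and erythrocytes overlapped between the groups, and none of their measured genes passed. Control probe sets of 18S ribosomal RNA read 8.31 ± 0.22 in expressing and 9.88 ± 0.38 in non-expressing arrays (SD, n = 3 each), without overlap. For beta-actin the 3′ value less the 5′ value was 1.23 ± 0.05 and 1.38 ± 0.07, also without overlap. Both have an exact permutation p of 0.1 (two-sided), and no lower p is possible with groups of 3. The same measure for Gapdh was 0.171 ± 0.063 and 0.246 ± 0.073, and the groups overlapped (exact permutation p 0.3, two-sided).

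Of the 5 lists of related genes, the cell type markers left aside, 1 gene passed, Nppb of the stretch and load list. Of all genes 0.066% passed. The lists were chosen with earlier results of these data known, so this call is a description. Nppb, which encodes brain natriuretic peptide, released by stretched heart muscle, read 11.14, 11.11 and 11.67 in expressing and 13.13, 12.97 and 12.50 in non-expressing arrays. It fell by 1.56 on the log2 scale (SE 0.19, 2.95-fold; limma adjusted p 0.0453 over genes), and the call was lost with a random block for the title prefix (limma adjusted p 0.099). It was also lost with a trend and robust prior (0.0576), without _x_at and _s_at probe sets (0.0506), and without any 1 array other than non-expressing replicate 3 (0.0656 to 0.21). Of the 22 measured genes of the stretch and load list, 1 was lower and 21 did not pass, with 9 positive and 13 negative differences and a median of -0.03 beside -0.02 over all genes. Acta1, Nppa, Myh7, Egr1, Myc, Ccn1 and Tead1 are given here outside the rule for named genes, chosen after their values were seen. Nppa, the gene of atrial natriuretic peptide and also 1 of the atrial markers above, read 9.07, 11.27 and 10.24 in expressing and 10.74, 8.39 and 8.39 in non-expressing arrays. The groups overlapped widely, and its difference, opposite in sign to that of Nppb, was 1.02 (SE 0.70, limma adjusted p 0.603). Acta1, a skeletal actin gene switched on in loaded heart muscle, read 12.86, 12.79 and 11.69 in the non-expressing arrays. Nppb, Acta1 and both Ankrd1 probe sets were thus lowest, among the non-expressing arrays, in replicate 3. Other genes of the list were highest there, with 10.13, 10.33 and 10.51 for Myh7 and 8.99, 9.58 and 10.11 for Egr1. In the expressing arrays Nppb, Acta1 and Myh7 were below all non-expressing arrays, while Ankrd1 was not. Myh7 read 9.75, 9.97 and 9.82 in the expressing arrays (difference -0.48, limma adjusted p 0.212). The groups did not overlap in 6 of the 22 genes, namely Nppb, Acta1, Myh7, Myc, Ccn1 and Tead1, all lower in the expressing arrays. Of all probe sets 18.6% had no overlap and 10.3% were lower in that way. Here and in the lists below a gene counts by its brightest probe set, and these shares were not computed over genes.

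None of the 27 measured partners in titin, Z-disc and costamere passed, with a median of -0.01, 13 positive and 14 negative. The groups did not overlap in 9 of the 27, in both directions, beside 18.6% of all probe sets. The lowest p belonged to Mypn, which encodes myopalladin, a Z-disc protein that binds Ankrd1 (difference -0.27, SE 0.08, limma adjusted p 0.337). Cavin4, a caveola gene of muscle, differed by -0.32 (0.360) and Itgb1, the integrin beta subunit of the costamere, by 0.25 (0.362). Ttn, the titin gene, differed by 0.06 (SE 0.07) and Tcap, for the cap protein of titin, by 0.01 (SE 0.10), and both were named outside the rule as known partners.

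In the calcineurin and NFAT list 0 of 21 genes passed in limma, with a median of 0.01, 11 positive and 10 negative. Cib1, which encodes an anchor of calcineurin at the membrane, read 8.39, 8.50 and 8.40 in expressing and 8.67, 8.90 and 8.89 in non-expressing arrays (difference -0.39, SE 0.09, limma adjusted p 0.208). Its groups did not overlap, which held for 4 of the 21 genes, beside 18.6% of all probe sets. The others of the 4 were higher in the expressing arrays. Gsk3b, a kinase that opposes NFAT, differed by 0.26 (0.362) and Ppp3r1, the regulatory subunit of calcineurin, by 0.18 (0.447). Rcan2, named outside the rule as a relative of Rcan1, differed by 0.05 (SE 0.07).

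Among 19 other LIM domain genes none passed, and 12 were positive, with a median of 0.03. Of all genes 56.0% were negative. Pdlim3, which encodes a Z-disc protein that binds alpha-actinin, read 7.96, 8.53 and 8.46 against 7.60, 7.68 and 7.69 without overlap (difference 0.66, SE 0.14, limma adjusted p 0.201). The groups did not overlap in 4 of the 19, in both directions, beside 18.6% of all probe sets. Csrp2, a relative of Csrp3 typical of smooth muscle, differed by 0.37 (adjusted p 0.380) and Crip3, dim, by -0.25 (0.416). Of 12 measured factors that act upstream of the ankyrin repeat genes 9 were positive and none passed, with a median of 0.11. Their groups did not overlap in 5 of the 12, in both directions, again beside 18.6% of all probe sets. Gata6 differed by 0.29 (limma adjusted p 0.345), Myocd, the partner of serum response factor, by 0.33 (0.370) and Hand2 by 0.37 (0.382).

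**Figure D4:**
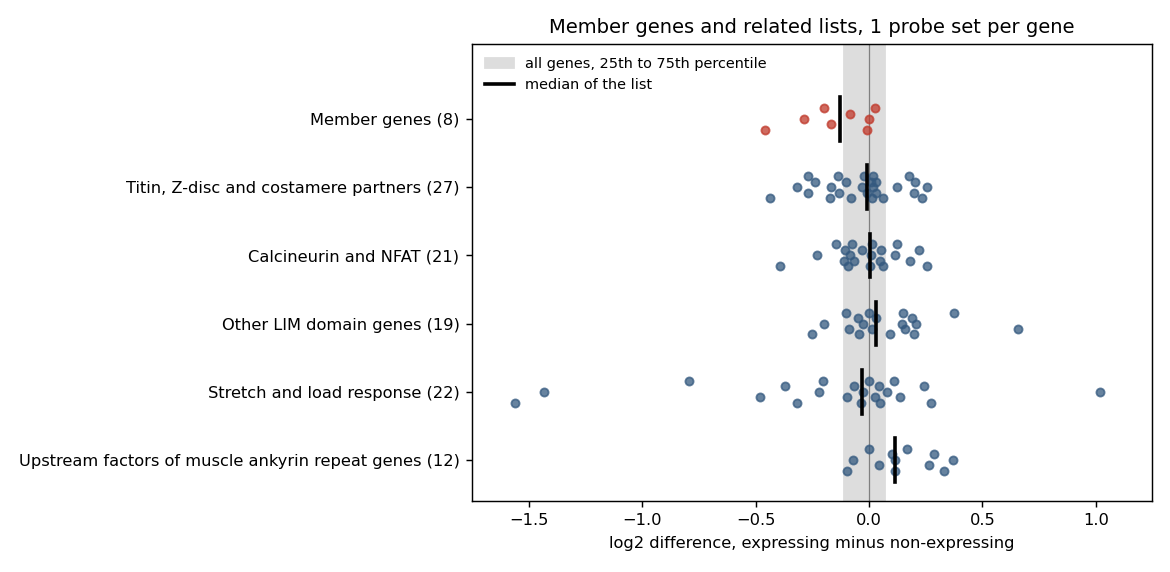
Log2 difference of each measured gene (expressing minus non-expressing, 1 probe set per gene) for the 8 member genes (red) and 5 related lists (blue), with each list's median as a black bar and the middle range of all genes, from -0.11 to 0.07, in grey. The medians lie between -0.13 and 0.11, and Nppb and Acta1 stand far to the left, and Nppa far to the right, of the stretch and load list.

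The genes with the nearest pattern were found by the root-mean-square distance between log2 values over the 6 arrays, each centred on its own mean, among 18193 genes. For Ankrd23, whose own spread was 0.24 on this measure, they were A930005H10Rik at 0.02, Rida at 0.04 and Osbpl3 at 0.05. Their differences were -0.43, -0.44 and -0.38, and none passed in limma. For the brighter Ankrd1 probe set (own spread 0.17) they were Gdf11, Izumo3 and 8430416G17Rik at 0.04, 0.04 and 0.05, and for the brighter Rcan1 probe set (own spread 0.18) Isl2, E130308A19Rik and 4930544G11Rik at 0.04, 0.04 and 0.05. With 6 arrays and so many genes some lie this near whatever they do, and 3 of these 6, Izumo3, 8430416G17Rik and 4930544G11Rik, lie below the array medians.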

How the data were processed

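Total RNA (500 ng, amplified, biotin-labelled) of 6 heart apex samples was hybridised to 1 array each, per the labels' protocols. Each value is a log2 expression level of 1 probe set, as deposited by the authors. The submitters' processing notes name RMA and Partek 6.6 without role or order; their settings are not given in the sources used. RMA scales arrays to 1 distribution, so a difference is relative to the other genes.

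Of 45101 probe sets, 64 controls were kept out of the tests. The platform table gives 1 symbol to 34945 of the 45037 others, several to 932 and none to 9160. Groups were compared with limma 3.58.1 in R 4.3.3 (lmFit, eBayes, two-sided, Benjamini-Hochberg threshold 0.05) across all probe sets. For genes, p-values of the same fit were adjusted over 18193 genes, each by its brightest probe set. The fit was tested on simulated data. The number of arrays, 3 a group, limits the precision.

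The members and lists were chosen with earlier results of these data known. Named genes were all members and, of each list, those passing or else the 3 with the lowest p. Outside this rule Ttn, Tcap, Rcan2, Nppa and, in the stretch and load list, Acta1, Myh7, Egr1, Myc, Ccn1 and Tead1 were added. Lists were matched by symbol. Alternatives were cyclic loess, a trend and robust prior, the title prefix as a random block (consensus correlation 0.117, statmod 1.5.0), a filter on dim probe sets, removal of _x_at and _s_at probe sets, array weights, the mean of a gene's probe sets, a threshold of 0.1, each array left out, and, chosen after seeing the data, a prior from the genes only.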

Additional observations from a re-analysis of the deposited data

How the results depend on the processing

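No member probe set passed in any of the 12 alternatives run over probe sets. Over genes none passed in 13 of 14, and with a trend and robust prior 1 did, Ankrd23. Its difference lay between -0.51 and -0.42 over the 12, with an adjusted p over probe sets of 0.05 to 0.325. That of Rcan1 1416601_a_at lay between -0.71 and -0.49 (adjusted p 0.0673 to 0.393). The signs of Ankrd2, Ankrd23, both Rcan1 probe sets and the bright Fhl1 probe set held throughout, and those of the other 6 changed in at least 1 alternative. The counts over all probe sets, 6 in the main comparison, were 37 with a trend and robust prior, 31 with the filter on dim probe sets, 43 with array weights, 53 at a threshold of 0.1 and 0 to 44 with 1 array left out. Over genes, 12 in the main comparison, they were 23 with the trend, 4 with a random block for the title prefix, 3 without _x_at and _s_at probe sets, 26 with array weights, 27 at 0.1, 1 with the mean of all probe sets, 4 with a prior from the genes only and 0 to 18 with 1 array left out. The filter, the removal of _x_at and _s_at probe sets and the left-out arrays test fewer features or samples. Otherwise the cause was not tested. No paired analysis was possible because the replicate numbers used here only name arrays in their order of deposit, and the title numbers of the groups have a single number in common. Dim probe sets (Ankrd2, Fhl1 1459003_at) could hide a change.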
